A study of Mus musculus with 2 samples.

Results

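The genes described here encode the ESCRT machinery and the other proteins known to form exosomes, the small vesicles that cells release from endosomes. They were taken from a list of 36 genes by matching each name to the gene symbol of an array probe. Of the 36, 35 had a probe, 34 had an intensity on both arrays, and 22 passed the filter on dim genes described below. Among all 19316 genes with a probe, 13735 had an intensity on both arrays and 6875 passed that filter. The RNA came from vesicles that mouse cytotoxic T lymphocytes (CTL, the killer T cells of the immune system) shed into their culture supernatant over 7 days. The supernatant was concentrated by ultrafiltration with a cutoff of 750 kDa and passed over a DEAE column, a positively charged resin that holds negatively charged particles until salt displaces them. One group was the vesicles eluted with 0.3 M NaCl and the other those eluted with 0.5 M NaCl, each measured on 1 array, with CTL supernatant as the shared source. Mouse strain, age, genotype, stimulation of the cells and the number of pooled preparations are not stated in these sources.

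Exosomes begin as inward buds of the endosome membrane. ESCRT-0, ESCRT-I and ESCRT-II gather ubiquitin-tagged cargo in turn, ESCRT-III filaments cut the bud from the membrane, and the ATPase Vps4 takes the filaments apart. A parallel route runs through syndecans, the adaptor syntenin and Alix, which feed cargo to ESCRT-III, and a further route uses ceramide made by a sphingomyelinase. In cytotoxic T cells the lytic granules belong to the same endosomal and lysosomal system. The arrays measured messenger RNA carried in the vesicles, not the proteins that built them.

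The question was whether vesicles released at the higher salt, and so more tightly bound to the resin, carry these messages in different proportion from those released at the lower salt. With 1 array per fraction there is no replicate check, no test and no SD between preparations, so each value describes this pair of arrays. Each difference is the log2 level at 0.5 M less that at 0.3 M, after centring. Each array was centred on its median over the 16154 probes with an intensity on both arrays, which took out a shift of -0.30. That shift belongs to these shared probes, not to all 18969 probes with an intensity at 0.3 M and 16732 at 0.5 M. How many vesicles each fraction held is not known, so every value is relative to the other messages on its array. The only spread the data give is how far 2 probes for one gene disagree, with an SD of 0.55 for the difference of a single probe (324 genes), and 0.50 where both probes were bright (162 genes). Each of the 34 genes rested on a single probe with intensities on both arrays, so none of them could be checked against a second probe. Genes were kept if the mean of their 2 log2 levels lay at or above the median of that mean, and a difference of 2-fold was used as the size rule.

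Markers of the stated cell of origin were present. All 12 T cell and CTL markers had an intensity on both arrays, and their raw intensities summed to 8678 at 0.3 M and 8836 at 0.5 M. That sum is mostly Cd8a, the coreceptor of these cells, at 3677 and 2463, and Gzmb, a granzyme, at 2493 and 2838. After centring, 10 of the 12 lay above 0, where 7387 of all 13735 genes measured on both arrays did. The 10 kept ones had a median of 0.66, against 0.08 for all kept genes and 0.49 for the brightest 10% of them. Cd3g, a chain of the T cell receptor complex, read 105 and 162, while Cd3e (12 and 14) and the perforin gene Prf1 (33 and 26) were dim.

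Markers of other cells are given for comparison. Their raw sums are to be read against a ratio of 0.81 between the arrays' medians over shared probes. Red cell markers (5 of 7 with an intensity on both) summed to 17151 and 7931, and their 3 kept genes, all globins, had a median difference of -0.78. B cell markers (6 of 8) summed to 424 and 737, with 4 of the 6 above 0 after centring, where 7387 of all 13735 genes measured on both arrays were. Their 4 kept genes had a median difference of 1.84, and 3 of them were at least 2-fold higher, against 4.90% of all kept genes. Among those 3, Cd79b read 94 and 328 (2.10) and Cd74 read 43 and 188 (2.43). The other kept one, Cd22, read 225 and 126 (-0.54). Macrophage and dendritic cell markers summed to 399 (7 of 9) and 230 (6 of 9), but without Mrc1, singled out after its values were seen, to 140 and 143. Of the 6 measured on both arrays, 5 lay above 0, and 3 of the 6 fell below the filter on dim genes. Fibroblast markers (4 of 5 at 0.3 M, 3 at 0.5 M) summed to 138 and 106, and liver markers (3 of 4 on both) to 55 and 46, close to the ratio between the arrays. The part of other cells' RNA in the differences below was not tested.

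With centring, the kept vesicle biogenesis messages lay within 2-fold between the fractions, with a median near that of all genes, apart from Ptpn23, a phosphatase-like partner of the ESCRT machinery. The 22 kept genes had a median difference of 0.14, against 0.08 for all kept genes (-0.16 against -0.22 as deposited). Their quartiles with centring were -0.22 and 0.44 against -0.26 and 0.46. Their SD was 0.54 with Ptpn23 and 0.41 without it, against 0.54 for all kept genes. Above 0 lay 14 of 22 (63.6%), where 56.6% of all kept genes did. None of the 22 was at least 2-fold higher at 0.5 M, where 4.90% of all kept genes were. A single gene, Ptpn23, was at least 2-fold lower (4.55% of the 22), where 1.82% of all kept genes were. The balance of the directions rests on the scaling: over all kept genes it was 337 higher and 125 lower with centring, but 96 and 462 as deposited, 188 and 235 with quantile normalization and 178 and 243 with loess. Within 1 probe SD of the median of all kept genes lay 17 of 22 (77.3%), against 69.4% of all kept genes. Those beyond it were Vps28 and Chmp2a on the higher side and Ptpn23, Tsg101 and Chmp3 on the lower side. The levels of the 34 genes on the 2 arrays correlated at r = 0.95 (Pearson) and rho = 0.95 (Spearman), a description over genes, which are not replicates and share the arrays' probe effects.

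**Figure D1:**
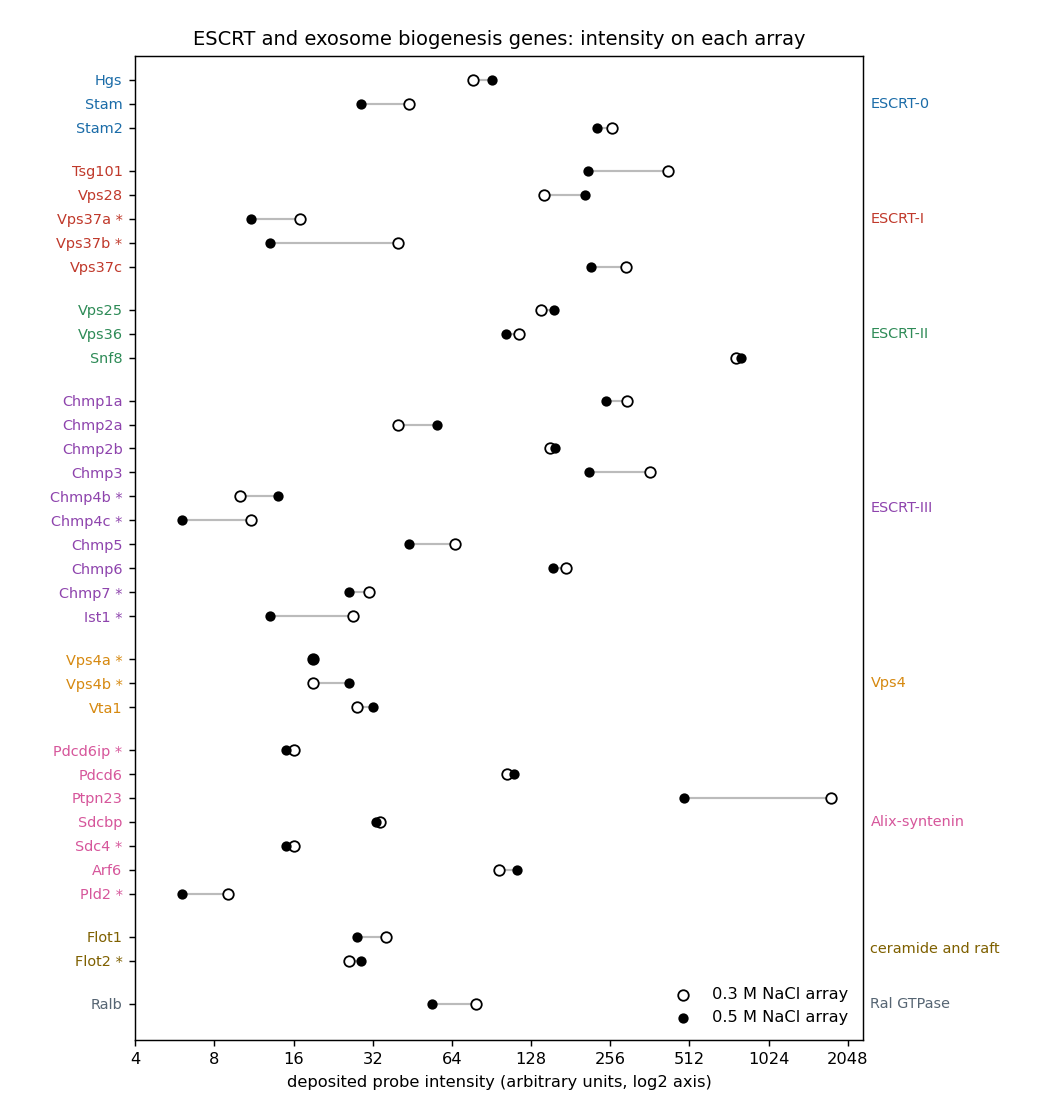
Deposited probe intensity (arbitrary units, log2 axis) of the 34 genes with an intensity on both arrays, grouped by complex; open circles are the 0.3 M array, filled circles the 0.5 M array, and an asterisk marks the 12 genes that did not pass the filter on dim genes. The longest line is that of Ptpn23, from 1765 to 488, and those of Snf8, Pdcd6 and Sdcbp are among the shortest.

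Before centring, 21 of the 34 genes had a lower intensity at 0.5 M, 12 a higher one and 1, Vps4a, the same. The arrays' medians over shared probes were 32 at 0.3 M and 26 at 0.5 M, so centred differences are used from here. With centring, no complex had more than 1 gene past 2-fold.

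ESCRT-0 picks up ubiquitinated cargo on the endosome. Its 3 genes lay within 2-fold, with a median of 0.12 with centring, -0.05 with quantile normalization, -0.04 with loess and -0.18 as deposited. Hgs, the subunit that binds the endosomal lipid PI3P and ubiquitin, read 77 at 0.3 M and 91 at 0.5 M, a centred difference of 0.54. Its partner Stam read 44 and 29 (-0.30), and the close relative Stam2 read 259 and 229 (0.12). The gap of 0.42 between the paralogues Stam and Stam2 was smaller than the probe SD of such a gap, 0.77. Stam2 set that median and so changed sign with it.

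ESCRT-I, which passes cargo on to ESCRT-II, had a wider spread than ESCRT-0 or ESCRT-II. Tsg101, the subunit that binds ubiquitin and the short proline-rich motifs of cargo adaptors and viral Gag proteins, read 423 at 0.3 M and 211 at 0.5 M. Its difference was -0.70 (1.63-fold lower), and 430 of the 6875 kept genes had a lower one. Vps28, the subunit that contacts ESCRT-II, read 144 and 206, a difference of 0.82 (1.76-fold higher), with 658 kept genes above it. These 2 subunits of the same complex were thus 1.52 apart, about 2 probe SDs of a gap. They are the lowest and highest kept genes of ESCRT-I, whereas that SD is for a pair not picked by its values. The gap was between 1.42 and 1.59 under the 5 treatments of the values. Centring and the deposited scale give the same gap, because the shift cancels. As deposited Tsg101 was at -1.003, just past the 2-fold rule, so the 2-fold count for the set rests on the scaling for this gene.

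The listed Vps37 paralogues, alternative stalk subunits of ESCRT-I, all lay below 0. A further paralogue outside the list, Vps37d, is given below and lay above 0 (0.15). Vps37c read 295 and 217 (-0.14), and the dim Vps37a read 17 and 11 (-0.33), its second probe being empty on both arrays. Vps37b read 40 at 0.3 M and 13 at 0.5 M, a difference of -1.32 (2.50-fold lower), past the size rule but below the filter on dim genes. Rounding of the deposited intensities to whole numbers alone allows -1.40 to -1.25 for Vps37b, and a pseudocount of 16 brought it to -0.76. With no filter on dim genes, Ptpn23 and Vps37b were the 2 of 34 genes at least 2-fold lower, against 2.77% of all 13735 genes measured on both arrays. None of the 34 was at least 2-fold higher, against 5.10%. ESCRT-I had a median of -0.14 over its 3 kept genes and -0.33 over all 5. For the 3 kept genes it was -0.31 with loess or quantile normalization and -0.44 as deposited, and the filter on at least 1 array, which let in Vps37b, gave -0.42.

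ESCRT-II joins ESCRT-I to the filaments of ESCRT-III. All 3 of its genes were kept, lay above the median of all kept genes and stayed within 2-fold, with a median of 0.36. Vps25, the subunit that contacts Chmp6, read 140 and 156 (0.46). Snf8, a further core subunit, read 773 and 807 (0.36), and Vps36, which binds lipid and ubiquitin, read 115 and 103 (0.14). The complex stood less above the rest once the trend of the difference with brightness was removed. With loess the median was 0.07, with Snf8 at 0.02, and with quantile normalization it was 0.10. As deposited Vps36 was at -0.16.

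**Figure D2:**
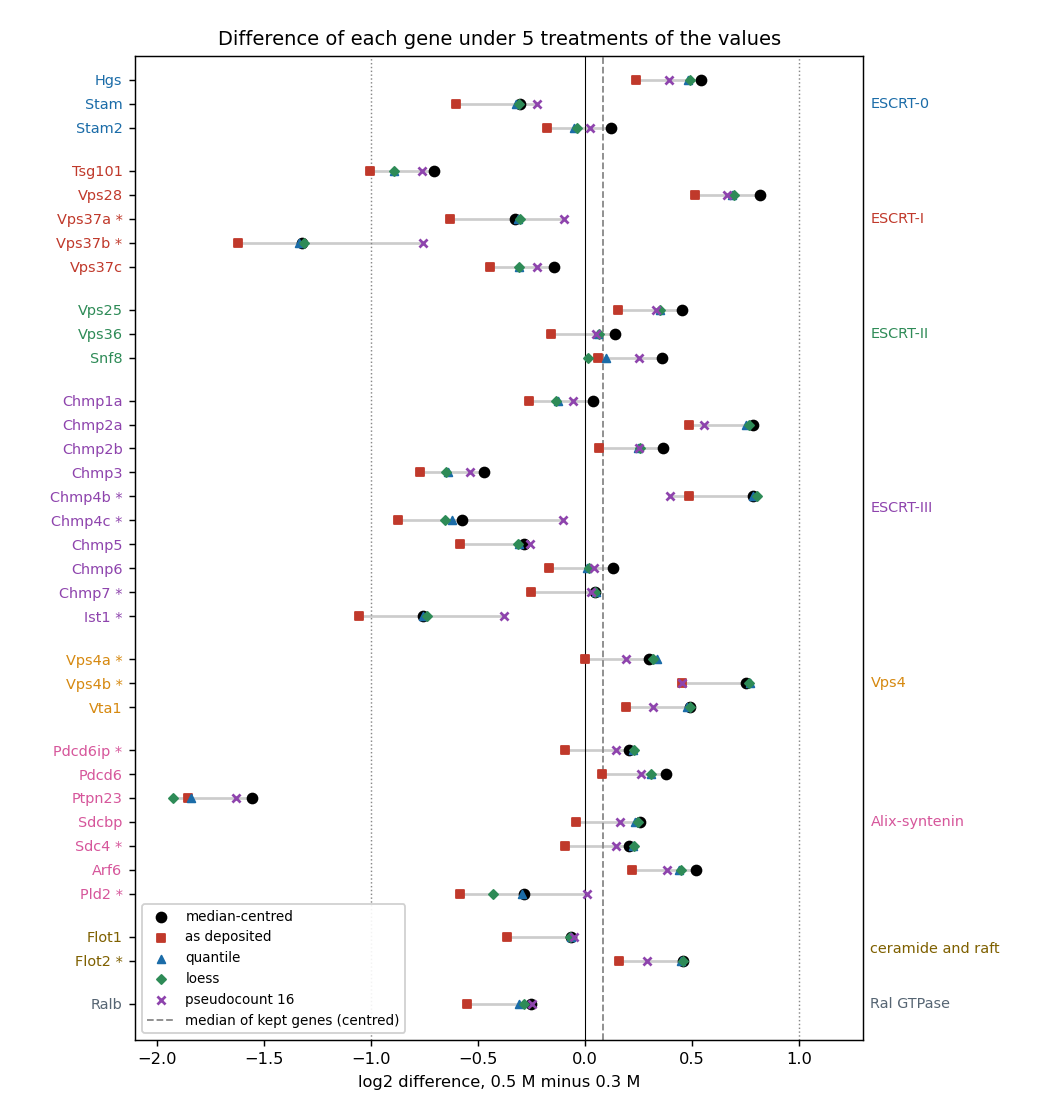
Log2 difference (0.5 M minus 0.3 M) of the 34 genes under 5 treatments of the values: centring on the array medians (black circles), values as deposited, quantile normalization, loess and a pseudocount of 16. The dashed line is the median of all kept genes with centring (0.08), dotted lines mark 2-fold, asterisks mark genes below the filter on dim genes, and Ptpn23 lies beyond 2-fold under each of the 5, from -1.93 to -1.56.

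ESCRT-III is the membrane-cutting filament, built from the charged CHMP proteins. Of its 11 genes, 10 had an intensity on both arrays and 6 were kept. Those 6 had a median of 0.09, against 0.08 for all kept genes, and none passed 2-fold. As deposited that median was -0.21, and both loess and quantile normalization gave -0.06. Chmp1b had no probe under its symbol among those used here.

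Within ESCRT-III the genes lay on both sides of 0. Chmp6, which starts the filament on ESCRT-II, read 174 and 155 (0.13). The main filament proteins Chmp4b (10 and 14, 0.78) and Chmp4c (11 and 6, -0.57) were dim on both arrays. Rounding alone allows 0.66 to 0.91 for Chmp4b and -0.76 to -0.39 for Chmp4c. A pseudocount moved them to 0.40 and -0.10, so these messages could not be compared at this signal.

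Chmp2a, Chmp2b and Chmp3, subunits that end the filament and recruit Vps4, all passed the filter on dim genes. Chmp2a read 40 at 0.3 M and 56 at 0.5 M (0.78, 1.72-fold higher), and its paralogue Chmp2b read 151 and 158 (0.36). Chmp3, which acts with the Chmp2 proteins, read 363 and 213 (-0.47, 1.38-fold lower). Chmp2a and Chmp3 were 1.25 apart, more than the probe SD of a gap, and between 1.09 and 1.42 apart under the 5 treatments. They too are the highest and lowest kept genes of their complex, so the same limit holds. The paralogues Chmp2a and Chmp2b were 0.42 apart, which is less than that SD.

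The later or accessory subunits were close to the rest of the transcriptome or dim. Chmp1a read 296 and 247 (0.04) and Chmp5, the partner of Vta1, read 66 and 44 (-0.29). Chmp7, known for resealing the nuclear envelope, read 31 and 26 (0.05) and fell below the filter. Ist1, a regulator of Vps4, read 27 and 13 (-0.75), also below the filter, and was at -1.05 as deposited and -0.38 with a pseudocount.

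The Vps4 group recycles the filaments. Its 3 genes all lay above 0 with centring, at low intensities. Vps4a read 19 on both arrays (0.30) and Vps4b 19 and 26 (0.75). Vta1, the cofactor that stimulates Vps4, read 28 and 32 (0.49) and was the 1 kept gene of the group. Rounding alone allows 0.22 to 0.38 for Vps4a and 0.69 to 0.82 for Vps4b. As deposited the differences were 0.00 for Vps4a, 0.45 for Vps4b and 0.19 for Vta1.

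The Alix-syntenin group held the largest difference of all 34 genes. Ptpn23, also known as HD-PTP, is a Bro1-domain protein related to Alix that hands receptors from ESCRT-0 to ESCRT-III. It read 1765 at 0.3 M and 488 at 0.5 M, a difference of -1.56 (2.94-fold lower after centring). This was about 3 probe SDs below the median of all kept genes, though that SD is for a gene not picked by its value. Of the 6875 kept genes, 5 had a lower difference, and among the 688 in the brightest 10% none did, where that bright group had a median of 0.49 and 34 genes at least 2-fold lower. Other scalings gave -1.84 (quantile), -1.93 (loess) and -1.85 (as deposited), and a pseudocount of 16 gave -1.63. It rests on 1 probe. Without Ptpn23 the median of the kept genes in the set was 0.14.

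Other genes of the route did not share that size. Pdcd6ip, the gene of Alix, was dim at 16 and 15 (0.21), and Pdcd6, the calcium sensor ALG-2 that binds Alix and Ptpn23, read 104 and 110 (0.38). Ptpn23 lay 1.76 below Pdcd6ip and 1.94 below Pdcd6, each more than 2 probe SDs of a gap. Ptpn23 is the lowest gene of the set, whereas that SD is for a pair not picked by its values. The SD was also taken over kept genes, and Pdcd6ip fell below the filter on dim genes. Sdcbp, the gene of syntenin, read 34 and 33 (0.26). Its membrane partner Sdc4, a heparan sulfate proteoglycan, was as dim as Pdcd6ip, at 16 and 15 (0.21).

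Arf6 and Pld2 act together upstream of syntenin, where the small GTPase Arf6 activates the lipid enzyme Pld2. Arf6 read 97 and 113 (0.52), and Pld2 read 9 and 6 (-0.29), too dim for a direction, since a pseudocount put it at 0.01. The 4 kept genes of the route, Pdcd6, Ptpn23, Sdcbp and Arf6, had a median of 0.32, and ranged from -1.56 to 0.52, a wider range than that of the kept genes of any other group.

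**Figure D3:**
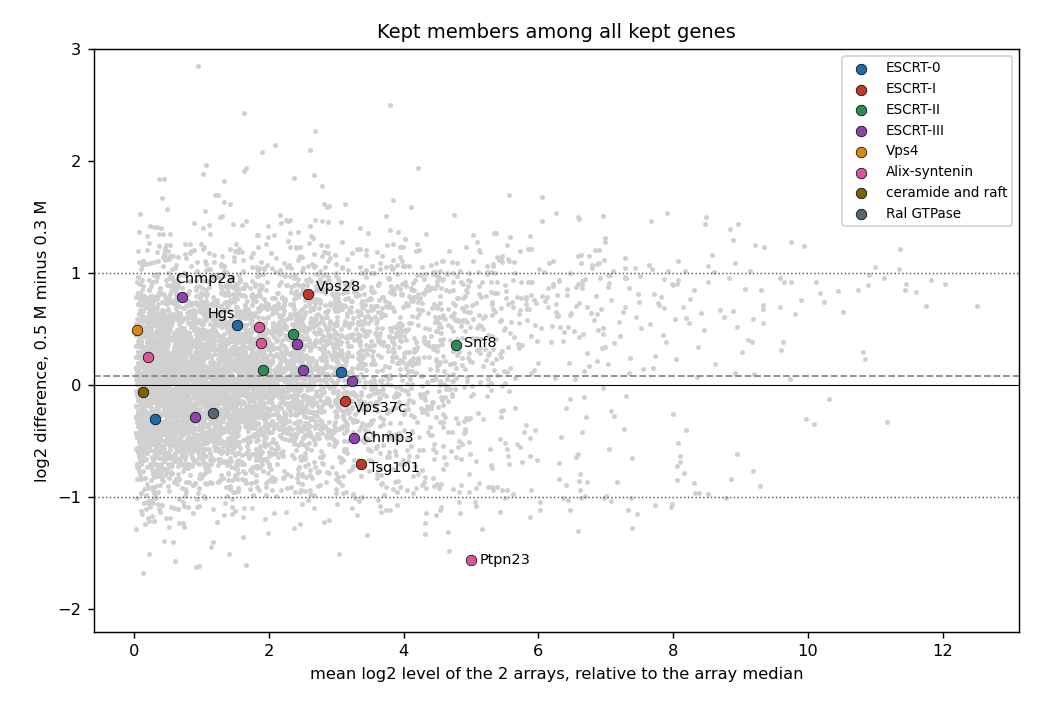
Log2 difference (0.5 M minus 0.3 M) against the mean log2 level of the 2 arrays relative to the array median; grey points are the 6875 kept genes and coloured points the 22 kept genes of the set by complex. The dashed line is the median of all kept genes (0.08), dotted lines mark 2-fold, and Ptpn23, at -1.56, is the only coloured point beyond them.

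The ceramide route could not be assessed. Smpd3, neutral sphingomyelinase, which makes ceramide at the endosome, had a probe that was empty on both arrays. The flotillins, are scaffolds of membrane rafts often found in vesicles. Flot1 read 36 and 28 (-0.06) and Flot2, below the filter, read 26 and 29 (0.46). Their gap of 0.52 was under the probe SD of a gap. Ralb, a Ral GTPase linked to multivesicular body traffic and the exocyst, read 79 and 54 (-0.25).

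A wider list of 50 genes of the same pathways, such as cargo adaptors, ubiquitin ligases and deubiquitinases, other syndecans and sphingolipid enzymes, was set beside them. Of these, 43 had an intensity on both arrays and 21 were kept, with a median of 0.14, against 0.08 for all kept genes. None of the 21 was at least 2-fold higher, against 4.90% of all kept genes. The 1 gene at least 2-fold lower (4.76% of the 21, against 1.82% of all kept genes) was Sdc3, another syndecan, which read 176 at 0.3 M and 47 at 0.5 M (-1.61). Stx12, an endosomal syntaxin, came next at 362 and 168 (-0.81).

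On the higher side, the largest kept differences were those of Mvb12a, a further subunit of ESCRT-I, at 367 and 540 (0.86), and of the ubiquitin ligase Wwp2, at 85 and 120 (0.80). Mvb12a thus lay beside Vps28 and opposite Tsg101 of the same complex. Below the filter, Rala, the paralogue of Ralb, read 41 and 12 (-1.47), and Spast, the microtubule-severing partner of ESCRT-III, read 36 and 14 (-1.06). With a pseudocount these were at -0.83 and -0.60.

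The remaining ESCRT-I subunits of the wider list were looked up after the values were seen. Ubap1 read 121 and 114 (0.21) and Vps37d 61 and 55 (0.15), while Mvb12b was empty at 0.3 M and read 6 at 0.5 M. Brox, a further Bro1-domain protein, was looked up in the same way and read 354 and 231 (-0.32), well within 2-fold. It lay 0.73 probe SDs below the median of all kept genes, on the side of Ptpn23, whereas Pdcd6ip, the gene of Alix, lay above 0 (0.21). Of the 22 kept genes of the main list, 17 kept their sign under all 5 treatments of the values. The 5 that did not were Stam2, Vps36, Chmp1a, Chmp6 and Sdcbp, each within 0.26 of 0 with centring. The deposited scale adds the shift of -0.30 to every centred difference. A gene less than that far above 0 must therefore change sign, so this count is no check on the genes.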

How the data were processed

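Per the labels' protocols, amplified RNA carried the dye Cy5 alone, so each array has 1 colour. The authors deposited 1 whole-number intensity per probe and array, on a linear scale. How they scanned, corrected background, normalized and chose which cells to leave empty is not given in the sources used here. Empty cells were left without a value. Of 23473 probes, 16154 had an intensity on both arrays. Symbols (1 for 20690 probes, none for 2783) came from the platform annotation, updated with RefSeq genes (assembly GRCm38.p6) by Entrez identifier (20556) or accession (9), with 125 kept as given. Coordinates are not printed, since the array's build is not named.

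Intensities were log2-transformed and each array centred on its median over shared probes. A gene is the mean of its probes. Named genes were all list members with an intensity, the wider list's genes past 2-fold and its 2 largest kept differences each way, and a few marker genes; Ubap1, Vps37d, Mvb12b, Brox and Mrc1 were added after their values were seen. The list, groups and rules were chosen with earlier results of these data known. Tried as alternatives were the deposited scale, quantile normalization, loess (span 0.3), 3 other filters on dim genes, a pseudocount of 16 and the brightest probe of a gene. The code was tested on simulated data. Python 3.11.15 with pandas 2.3.3 and statsmodels 0.14.6 was used. With 1 array per fraction no test was run.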

Additional observations from a re-analysis of the deposited data

How the results depend on the processing

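The count of 0 list members at least 2-fold higher held under all 8 alternatives. The count at least 2-fold lower was 1 (Ptpn23) except as deposited (2, with Tsg101) and with no filter on dim genes or a filter on at least 1 array (2 in each, with Vps37b). The members' median of 0.14 was -0.16 as deposited and 0.017 with loess. As deposited the median of ESCRT-III was -0.21 and that of Alix-syntenin 0.019. For the wider list, as deposited 2 genes were at least 2-fold lower and the median was -0.16, whereas with no filter 3 were lower and the median was -0.039, and with the filter on at least 1 array 3 were lower. For all genes, the 337 higher and 125 lower became 96 and 462 as deposited, 188 and 235 with quantile normalization, 178 and 243 with loess, and 701 and 380 with no filter. A pseudocount left 147 higher and the stricter filter 67 lower. The median of all kept genes was -0.22 as deposited. A stricter filter left no gene of the Vps4 or the ceramide group, and with the brightest probe no Vps4 gene was kept, so these have no value there. The number of arrays limits every value: without replicates, the spread between vesicle preparations is unknown, and dim probes, including 12 of the 34 genes, carry rounding error besides. No paired analysis was possible because each fraction has 1 array.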
